A study of Mus musculus with 24 samples.

Results

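The S100 proteins and the annexins are calcium-binding proteins, and 10 genes of these families were followed here in mouse liver: S100a4, S100a6, S100a10, S100a11 and Anxa1 to Anxa6. They were chosen by gene symbol from the 53467 genes of the count table, and they were proposed with the group levels of these same livers in view. Their levels, fold changes and calls are therefore a description. Calls and counts under a p threshold are given for them, but no p-value of a fold change is printed. All 10 were present, and all 10 were among the 19381 genes that reached 0.5 CPM (counts scaled by library size and composition, the unit of every level below) in at least 2 libraries. S100 proteins are small sensors that bind calcium through a pair of EF hands and then dock onto target proteins. Annexins bind acidic phospholipids when calcium rises and organise membranes, vesicle traffic and repair. The families meet in complexes: S100a10 joins Anxa2 at the plasma membrane, and S100a11 binds Anxa1. In liver, several of these genes are known to be low in resting hepatocytes and higher in bile duct, mesenchymal and inflammatory cells and in tumours.

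RNA was sequenced from 24 livers of male C57BL/6JAusb mice, with 1 library for each. They fell into 5 SB/AKT/NRas + TAA livers, 4 SB/AKT/NRas + saline livers, 4 SB/AKT/c-Met + TAA livers, 3 SB/AKT/c-Met + saline livers, 4 SB + TAA livers and 4 SB + saline livers. Every mouse, controls included, received the Sleeping Beauty transposase plasmid (SB) by hydrodynamic tail vein injection, which delivers plasmid mainly to hepatocytes; the plasmid groups also received plasmids for activated AKT with human c-Met or with mutant human NRAS (10 µg each, beside 0.8 µg of SB). Thioacetamide (TAA), a liver toxin that causes injury and fibrosis, or saline was then injected into the peritoneum 10 to 11 times over 5 to 6 weeks, from days 8 to 10 after the plasmids (TAA at 100 and then 200 mg/kg). The mice were 14 to 15 weeks old when they received the plasmids. The tissue was whole liver, so fewer cells of a type and less RNA per cell cannot be told apart. Markers of hepatocytes were abundant in every library, with a summed level of 48700 to 108000 CPM. Of 7 listed symbols, 6 were in the count table, and these 6 genes were detected in every group.

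The libraries held 2152510 to 3399247 counts. Human NRAS had 28 to 768 counts where its plasmid was injected (9 livers) and 0 to 2 counts elsewhere (15 livers). Human MET had 2 to 31 counts in its 7 livers and 0 in 17 others. SB + TAA replicate 4 stood apart through skeletal muscle transcripts (summed markers up to 4540 CPM, against at most 22.7 CPM in SB + saline). The TMM scaling factors were 0.9432 to 1.145 in SB + TAA and 0.7719 to 0.8175 in SB + saline, and scaling by library size alone raised the median log2 fold change of all genes against SB + saline by 0.26 to 0.42.

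The 4 S100 members share chromosome 3, and the 6 annexin members lie on 6 chromosomes (3, 5, 6, 9, 11 and 19). By the GRCm38 positions deposited with the counts, S100a4, S100a6, S100a11 and S100a10 lie in that order on chromosome 3 on the forward strand, S100a11 at 93520488 to 93526287 and S100a10 at 93555080 to 93564643. Anxa5 is on the reverse strand of the same chromosome (36448923 to 36475894) and Anxa2 on the forward strand of chromosome 9 (69453620 to 69491795). The annotation places exon bases of Gm42674 within S100a4 and of Gm42603 within Anxa3 on the same strand, so the counts of these 2 members are less certain.

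RefSeq promoter windows on GRCm38.p6 were at hand for 7 members: S100a4, S100a6, S100a11, Anxa1, Anxa2, Anxa4 and Anxa5. The 250 bases before the start are printed for the 3 of them that were called in all 3 comparisons of a single treatment with SB + saline (S100a11, Anxa2 and Anxa5), and for Anxa1 and the first start of Anxa4, which were called in none. They are written 5′ to 3′ along the gene. The RefSeq starts used here are not always those of the deposited gene positions. The Anxa1 window lies within the deposited gene (20373428 to 20390944). The windows of S100a11, Anxa2 and Anxa5 run into the deposited gene, which for Anxa2 starts at 69453620. Capitals mark matches, on either strand, to AP-1 (TGANTCA), the TATA box (TATAAA), the GC box bound by Sp1 (GGGCGG) and STAT (TTCNNNGAA); no 2 matches overlap.
S100a11, chr3:93520246-93520495, forward strand: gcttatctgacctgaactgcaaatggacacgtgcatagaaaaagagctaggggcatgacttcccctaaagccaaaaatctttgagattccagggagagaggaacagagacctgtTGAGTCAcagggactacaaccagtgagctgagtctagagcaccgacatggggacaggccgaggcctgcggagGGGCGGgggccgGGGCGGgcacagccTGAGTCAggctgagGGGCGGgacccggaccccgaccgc
Anxa2, chr9:69453433-69453682, forward strand: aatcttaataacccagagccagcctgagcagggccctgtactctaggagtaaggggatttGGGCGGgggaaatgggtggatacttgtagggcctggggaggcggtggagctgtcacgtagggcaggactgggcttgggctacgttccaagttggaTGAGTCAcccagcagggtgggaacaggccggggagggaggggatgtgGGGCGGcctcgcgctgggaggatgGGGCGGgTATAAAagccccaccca
Anxa5, chr3:36475888-36476137, reverse strand: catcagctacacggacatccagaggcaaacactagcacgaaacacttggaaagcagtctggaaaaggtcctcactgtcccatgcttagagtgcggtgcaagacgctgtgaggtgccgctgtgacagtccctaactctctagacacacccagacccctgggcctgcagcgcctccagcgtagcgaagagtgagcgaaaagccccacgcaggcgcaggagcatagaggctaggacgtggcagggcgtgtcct
Anxa1, chr19:20390672-20390921, reverse strand: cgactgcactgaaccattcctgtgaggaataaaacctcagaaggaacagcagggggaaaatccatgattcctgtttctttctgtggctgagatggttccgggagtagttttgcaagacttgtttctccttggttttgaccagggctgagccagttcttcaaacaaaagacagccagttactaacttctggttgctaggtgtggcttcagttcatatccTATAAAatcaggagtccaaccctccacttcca
Anxa4, chr6:86793585-86793834, reverse strand: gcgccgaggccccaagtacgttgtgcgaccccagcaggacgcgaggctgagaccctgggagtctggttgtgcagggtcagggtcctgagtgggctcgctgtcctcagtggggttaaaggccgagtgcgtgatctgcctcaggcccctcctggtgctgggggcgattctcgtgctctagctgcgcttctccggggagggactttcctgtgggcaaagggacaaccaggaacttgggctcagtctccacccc
The S100a11 window held 2 AP-1 matches, which began 136 and 38 bases before the start, and 3 GC boxes. The Anxa2 window held 1 AP-1 match, which began 95 bases before the start, 3 GC boxes and 1 TATA box. The other members with a window, including S100a6 and both starts of Anxa4, held no AP-1 match; S100a4 and Anxa1 held a TATA box, and Anxa5 held none of the 4 motifs. Of 32851 promoters of this length, 6.75% held an AP-1 match, 32.7% a GC box, 12.4% a TATA box and 7.02% a STAT match. These matches are descriptions of letters, and binding was not measured.

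Anxa2, S100a11, Anxa5 and S100a10 were higher in every liver with TAA, with either plasmid pair or with both than in every liver of SB + saline. Over all genes, such a separation upwards from SB + saline was seen for 5.07% with SB/AKT/NRas + saline, 5.28% with SB/AKT/c-Met + saline and 6.52% with SB + TAA; the members were chosen on these contrasts, so nothing is read from it. The calcium-independent S100a10 is the partner of Anxa2, a membrane scaffold that gathers plasminogen at the cell surface. S100a6 and Anxa3 had higher means with TAA or NRas, whereas the groups overlapped for Anxa4, Anxa6 and S100a4. The plot of all members by liver shows this division.

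**Figure D1:**
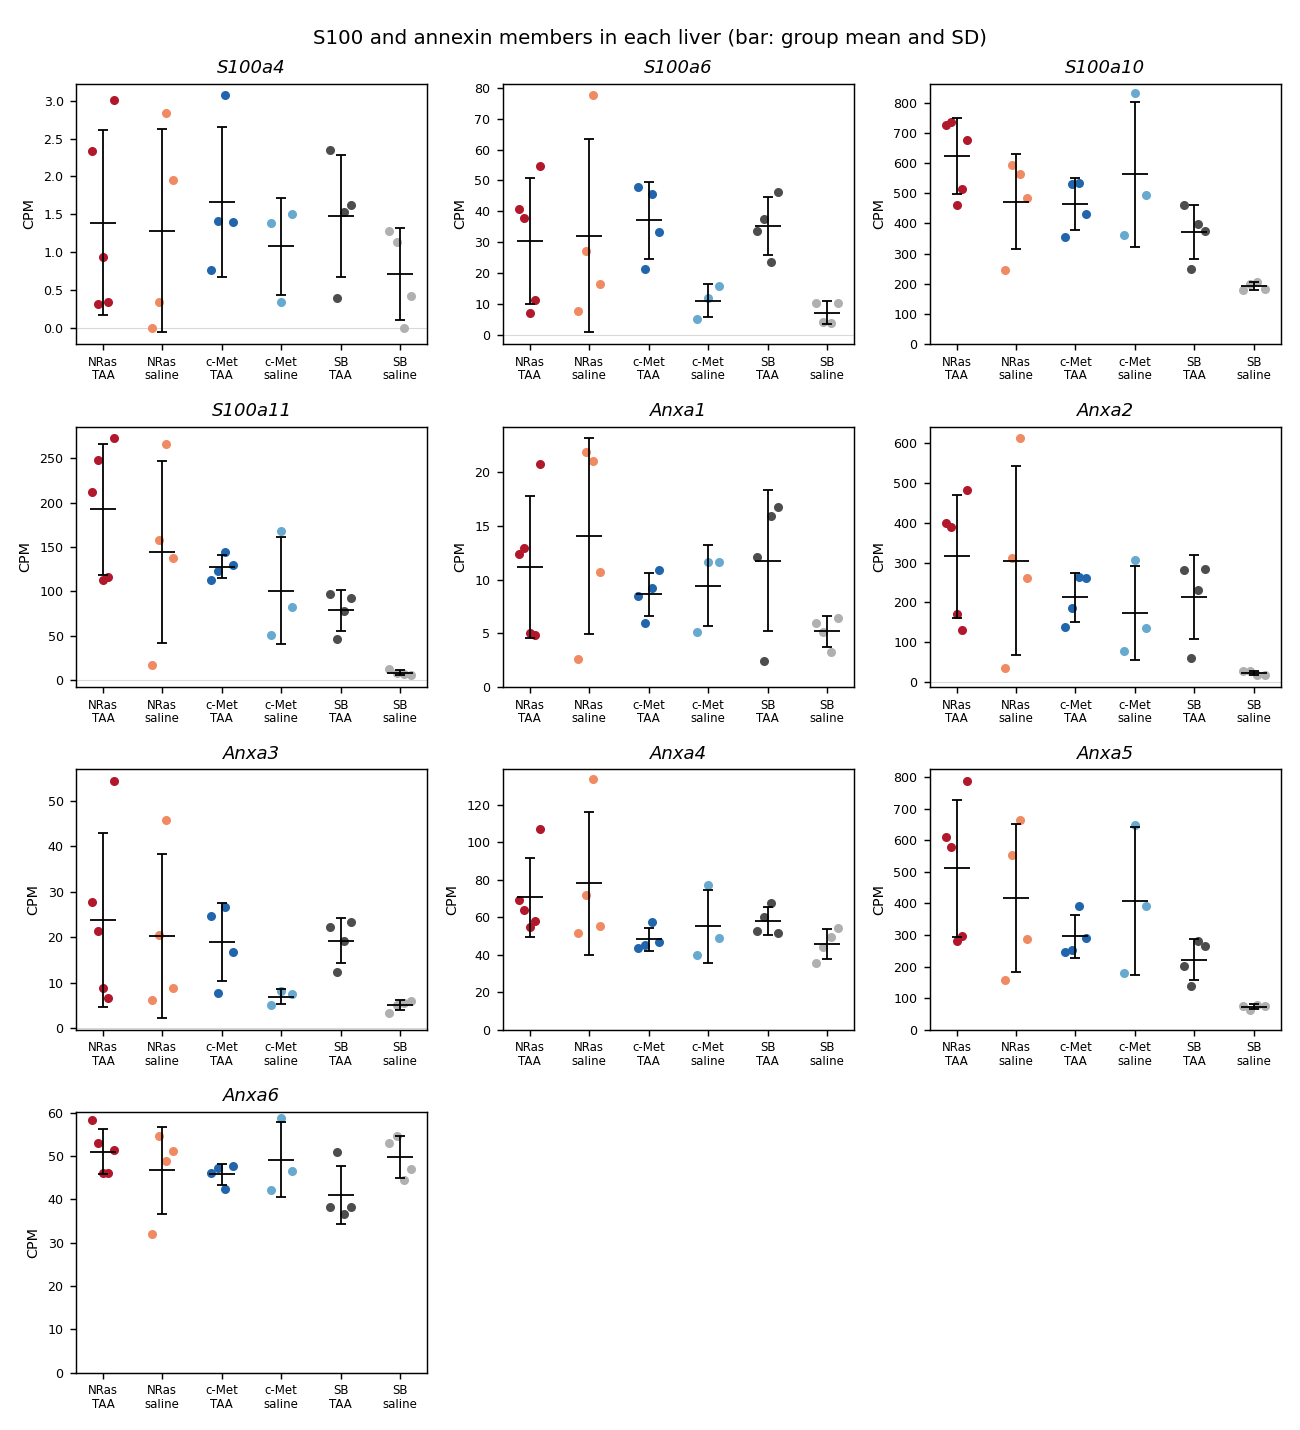
Level of each of the 10 members in CPM (vertical axis, from 0, a separate scale for each gene) in each liver; NRas stands for SB/AKT/NRas, c-Met for SB/AKT/c-Met, points are livers, and bars give the group mean and SD. S100a11, Anxa2, Anxa5 and S100a10 are lowest in the 4 SB + saline livers, while Anxa6 lies between 32.1 and 58.8 CPM throughout.

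S100a11 is the binding partner of Anxa1. Its level was 212, 248, 113, 117 and 272 CPM in SB/AKT/NRas + TAA livers and 16.7, 158, 266 and 137 CPM in SB/AKT/NRas + saline livers. It was 113, 123, 144.5 and 130.2 CPM in SB/AKT/c-Met + TAA livers and 51.4, 168 and 82.9 CPM in SB/AKT/c-Met + saline livers. It was 97.5, 46.2, 78.3 and 92.8 CPM in SB + TAA livers, against 12.8, 8.53, 7.22 and 6.42 CPM in SB + saline livers. The livers of all 5 other groups lay above SB + saline, those of SB + TAA lay below those of both plasmid groups with TAA, and SB/AKT/NRas + saline replicate 1 came nearest to the controls. Compared with SB + saline, the log2 fold change was 4.04 ± 0.53 (SE) in SB/AKT/NRas + saline, 3.52 ± 0.54 in SB/AKT/c-Met + saline livers and 3.17 ± 0.52 in SB + TAA.

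Anxa2, which links membranes to the actin cortex, followed the same course. Its level was 399.8, 390.4, 172, 132 and 483 CPM in SB/AKT/NRas + TAA livers and 36.5, 311, 612 and 260.0 CPM in SB/AKT/NRas + saline livers. It was 138, 185, 264 and 262 CPM in SB/AKT/c-Met + TAA livers and 77.8, 305 and 136 CPM in SB/AKT/c-Met + saline livers. It was 282, 60.4, 231 and 284.5 CPM in SB + TAA livers, against 27.4, 26.7, 18.9 and 17.98 CPM in SB + saline livers. No liver of the 5 other groups overlapped with SB + saline, but SB/AKT/NRas + saline replicate 1 and SB + TAA replicate 2 lay well below the rest of their groups. The log2 fold change against SB + saline was 3.75 ± 0.60 in SB/AKT/NRas + saline, 2.93 ± 0.60 in SB/AKT/c-Met + saline livers and 3.24 ± 0.59 in SB + TAA.

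Anxa5 binds phosphatidylserine on the surface of dying cells. It had 611, 578, 282, 297 and 788 CPM in SB/AKT/NRas + TAA livers and 156.5, 553, 665 and 289 CPM in SB/AKT/NRas + saline livers. It had 248, 252, 393 and 289.9 CPM in SB/AKT/c-Met + TAA livers and 179.7, 649 and 392 CPM in SB/AKT/c-Met + saline livers. It had 202, 138.5, 280.4 and 264 CPM in SB + TAA livers, against 74.5, 62.5, 79.8 and 75.8 CPM in SB + saline livers. Among the 3 single treatments the mean was lowest in SB + TAA, where the log2 fold change against SB + saline was 1.6 ± 0.38, beside 2.51 ± 0.39 in SB/AKT/NRas + saline livers and 2.48 ± 0.41 in SB/AKT/c-Met + saline. The livers of these 3 groups overlapped.

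S100a10 had 727, 735, 462, 513 and 676 CPM in SB/AKT/NRas + TAA livers and 244.5, 592, 564 and 485 CPM in SB/AKT/NRas + saline livers. It had 354, 531, 534 and 432.5 CPM in SB/AKT/c-Met + TAA livers and 363, 830.5 and 494 CPM in SB/AKT/c-Met + saline livers. It had 460.1, 249, 398.5 and 375 CPM in SB + TAA livers, against 178.5, 199.5, 205 and 181 CPM in SB + saline livers. Again no liver overlapped with SB + saline, but the differences were smaller than those of its partner Anxa2, with log2 fold changes of 1.30 ± 0.25 in SB/AKT/NRas + saline, 1.56 ± 0.27 in SB/AKT/c-Met + saline livers and 0.96 ± 0.25 in SB + TAA.

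S100a6 (calcyclin, a marker of proliferating and mesenchymal cells) and Anxa3 differed from these 4 genes in SB/AKT/c-Met + saline. S100a6 had 40.7, 37.9, 6.90, 11.3 and 54.6 CPM in SB/AKT/NRas + TAA livers, 7.48, 27.1, 77.5 and 16.3 CPM in SB/AKT/NRas + saline livers and 48.0, 21.1, 45.7 and 33.4 CPM in SB/AKT/c-Met + TAA livers. It had 5.09, 11.96 and 15.8 CPM in SB/AKT/c-Met + saline livers and 33.6, 37.5, 23.6 and 46.2 CPM in SB + TAA livers, against 10.3, 3.98, 3.61 and 10.3 CPM in SB + saline livers. The SB/AKT/c-Met + saline livers thus overlapped with SB + saline (log2 fold change 0.64 ± 0.69), whereas all SB + TAA livers lay above SB + saline (2.30 ± 0.60); in SB/AKT/NRas + saline (2.19 ± 0.60) replicate 1 overlapped with the controls. Anxa3 had 27.7, 21.5, 8.78, 6.53 and 54.4 CPM in SB/AKT/NRas + TAA livers, 6.16, 20.5, 45.7 and 8.79 CPM in SB/AKT/NRas + saline livers and 24.6, 7.74, 26.7 and 16.9 CPM in SB/AKT/c-Met + TAA livers. It had 5.09, 8.20 and 7.50 CPM in SB/AKT/c-Met + saline livers and 22.2, 12.2, 19.3 and 23.3 CPM in SB + TAA livers, against 3.42, 5.12, 5.61 and 5.99 CPM in SB + saline livers. Its log2 fold changes against SB + saline were 2.03 ± 0.60 in SB/AKT/NRas + saline, 0.47 ± 0.71 in SB/AKT/c-Met + saline livers and 1.93 ± 0.60 in SB + TAA. Whether S100a6 and Anxa3 differed between the 2 plasmid pairs on saline was not tested.

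The other 4 members were called in none of the 9 comparisons. Anxa1, an annexin that restrains inflammation through formyl peptide receptors, averaged 14.1 ± 9.16 CPM in SB/AKT/NRas + saline livers, 9.45 ± 3.77 in SB/AKT/c-Met + saline livers and 11.8 ± 6.60 in SB + TAA, against 5.18 ± 1.43 in SB + saline (SD). These groups overlapped, with 2.37 CPM in SB + TAA replicate 2 and 2.64 CPM in SB/AKT/NRas + saline replicate 1, below every SB + saline liver. Anxa4, a membrane annexin known from secretory epithelia, averaged 78.1 ± 38.2 CPM in SB/AKT/NRas + saline livers and 45.9 ± 8.03 CPM in SB + saline livers, with 134 CPM in SB/AKT/NRas + saline replicate 3. Its log2 fold change was 0.77 ± 0.25, 0.37 without that replicate and 1.25 with library size alone; in SB + TAA it was 0.33 ± 0.25, and 0.72 with library size alone.

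Anxa6, the largest annexin and a protein of late endosomes, averaged 41.0 ± 6.64 CPM in SB + TAA livers and 49.8 ± 4.79 CPM in SB + saline livers, a log2 fold change of -0.28 ± 0.16 that turned to 0.09 under scaling by library size alone. S100a4, which binds non-muscle myosin and marks fibroblasts and motile cells, had 0 to 12 counts per library. Its mean was 0.712 CPM in SB + saline and 1.08 to 1.66 CPM in the 5 other groups, with overlap everywhere, and the SE of its log2 fold changes against SB + saline was 0.88 to 1.01.

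**Figure D2:**
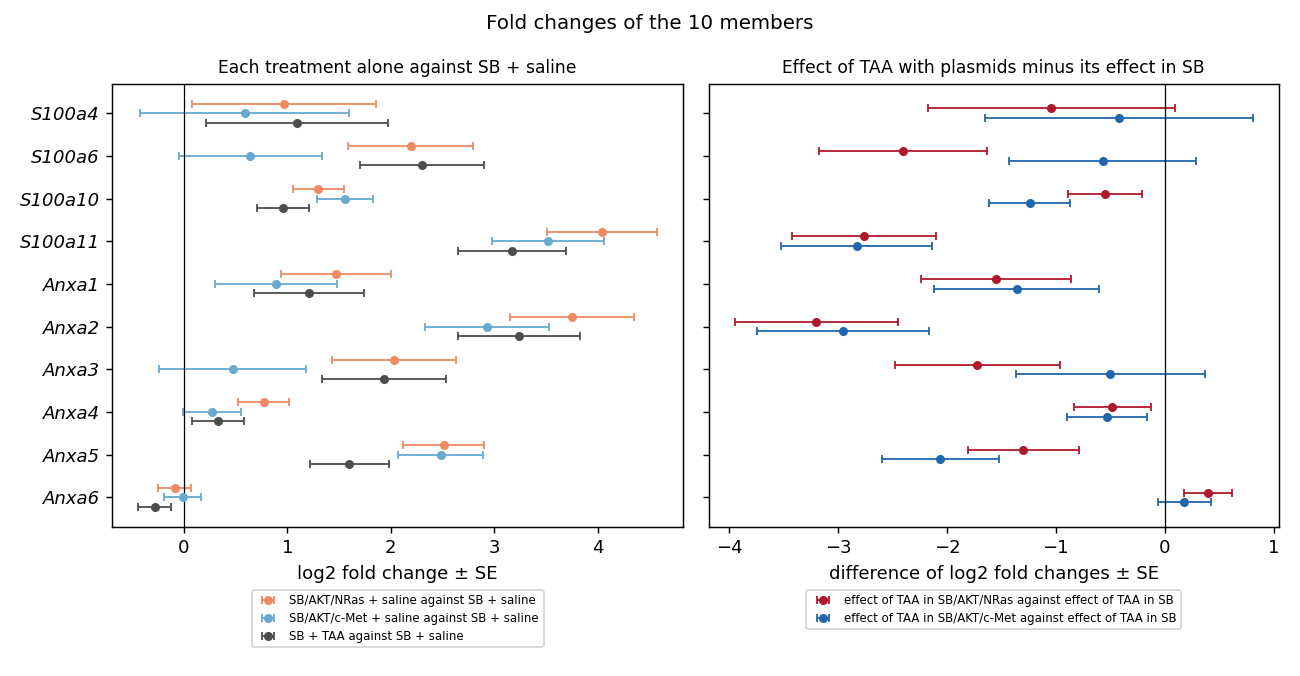
Left, log2 fold change ± SE (horizontal axis) of each member (rows) in SB/AKT/NRas + saline, SB/AKT/c-Met + saline and SB + TAA, each against SB + saline; right, the effect of TAA in plasmid livers minus its effect in SB livers. On the left S100a11 and Anxa2 lie furthest from 0, from 2.93 to 4.04; on the right both lie between -2.76 and -3.20.

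A gene was called where the Benjamini-Hochberg adjusted p of edgeR's quasi-likelihood test over all 19381 genes was under 0.05 and the log2 fold change lay above 1 or below -1. In SB/AKT/NRas + saline livers against SB + saline, 6 of the 10 members were called higher, where 4.71% of all genes were; they were S100a6, S100a10, S100a11, Anxa2, Anxa3 and Anxa5. In SB/AKT/c-Met + saline livers against SB + saline, 4 were called higher (S100a10, S100a11, Anxa2 and Anxa5), where 0.578% of all genes were; without SB/AKT/c-Met + saline replicate 2 the count was 2. In SB + TAA livers against SB + saline, 4 were called higher (S100a6, S100a11, Anxa2 and Anxa5), where 2.73% of all genes were, and S100a10 passed on the adjusted p but not on the fold (3.48% of all genes passed upwards on the adjusted p); without SB + TAA replicate 2 the count was 7. Since the members were chosen from these contrasts, nothing is read from the counts. The median log2 fold change over the members was 1.75 with SB/AKT/NRas + saline (0.07 over all genes), 0.76 with SB/AKT/c-Met + saline (0.02) and 1.40 with SB + TAA (0.09); the comparisons share the SB + saline livers.

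The combined treatments were compared with each of their parts. The members were chosen with all group levels in view, so nothing is read from their counts in any of these comparisons. In SB/AKT/NRas + TAA livers against SB + TAA, all livers lay above for 3 members: S100a11 (log2 fold change 1.29 ± 0.42), Anxa5 (1.21 ± 0.36) and S100a10 (0.75 ± 0.24). Such a separation upwards was seen for 2.89% of all genes. No member was called there by edgeR, where 0.826% of all genes were called higher, although 4 had an unadjusted p under 0.05 and DESeq2 called 1; in this comparison 2 members were called without replicate 4 of SB + TAA and replicate 1 of SB/AKT/NRas + saline, an omission chosen after the data were seen. In SB/AKT/NRas + TAA livers against SB/AKT/NRas + saline no member was separate (1.74% of all genes were, upwards) or called by edgeR, DESeq2 or limma-voom (0.108% of all genes called higher by edgeR), none had an unadjusted p under 0.05, and the 10 log2 fold changes ran from -0.34 for Anxa1 to 0.41 for S100a11.

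In SB/AKT/c-Met + TAA livers against SB + TAA only S100a11 lay above in all livers (0.70 ± 0.44; 2.53% of all genes), and 0 were called by edgeR, DESeq2 or limma-voom or had an unadjusted p under 0.05 (0.268% of all genes called higher by edgeR). In SB/AKT/c-Met + TAA livers against SB/AKT/c-Met + saline only S100a6 did so (1.73 ± 0.62; 5.07% of all genes), and 0 were called by edgeR, DESeq2 or limma-voom (0.108% of all genes called higher by edgeR), with 2 at an unadjusted p under 0.05. The median over the members was 0.09 to 0.32 in these 4 comparisons, beside medians between -0.02 and 0.02 over all genes.

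The effect of TAA was also compared between livers with and without oncogene plasmids. This draws on the same group levels, so the calls and counts of members here are descriptions only. For Anxa2 the log2 effect of TAA was 0.05 ± 0.49 in SB/AKT/NRas livers and 3.24 ± 0.59 in SB livers, a difference of -3.20 ± 0.75. For S100a11 the effects were 0.41 ± 0.41 in SB/AKT/NRas livers and 3.17 ± 0.52 in SB livers, a difference of -2.76 ± 0.66. These 2 members were called lower in that contrast, where 0.583% of all genes were, but the count fell to 0 or 1 in 14 of 17 omissions of a single liver and was 4 without SB/AKT/NRas + saline replicate 1; DESeq2 also called 2, while limma-voom, robust estimation and a fit of only the groups compared called 0. In SB/AKT/c-Met livers the differences were of like size for Anxa2 (-2.95 ± 0.79) and S100a11 (-2.83 ± 0.69). For Anxa5 the difference was -2.06 ± 0.54 with SB/AKT/c-Met, beside -1.30 ± 0.51 with SB/AKT/NRas. With SB/AKT/c-Met no member was called by edgeR, DESeq2 or limma-voom, where edgeR called 0.0103% of all genes lower. There, 4 members had an unadjusted p under 0.05.

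Livers of the same group differed widely, and members rose and fell together among them. SB/AKT/NRas + saline replicate 1 had the lowest level of its group for all 10 members, and replicate 3 had the highest for 7. With TAA, SB/AKT/NRas + TAA replicate 5 had the highest level for 8 members, and replicates 3 and 4 the lowest for 5 and 4. Human NRAS from the plasmid stood at 34.0, 47.7, 18.5, 17.9 and 75.7 CPM in SB/AKT/NRas + TAA livers and at 12.3, 55.3, 218 and 66.1 CPM in SB/AKT/NRas + saline livers, so that the livers with the lowest and the highest transgene were those with the lowest and the highest Anxa2 on saline and, with TAA, the lowest and the highest as well. In SB/AKT/c-Met + saline replicate 1 was lowest for 9 members and replicate 2 highest for 7, and in SB + TAA replicate 2 was lowest for 7. The share of sequencing records assigned to genes moved with this as well: it was 13.75% in SB/AKT/NRas + saline replicate 1 and 23.94% in its replicate 3, the lowest and the highest of the 24 libraries, and 15.91% in SB/AKT/c-Met + saline replicate 1 and 20.63% in its replicate 2. In SB + TAA, replicate 2 had 23.08%, within the 20.68% to 23.13% of its group. The part of the transgene level and of the assigned share in these differences was not tested.

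Deviations of single livers from their group mean were not used to choose the members, so 2 pairs of known binding partners were tested on them. Anxa2 and S100a10 deviated together, with Pearson's r = 0.90 and Spearman's rho = 0.84 over 24 livers (permutation p = 0.00018 and 0.00025, adjusted over the 2 pairs 2e-04 and 0.00025). Without the 2 livers farthest from the median of Anxa2, r was 0.79 (permutation p = 0.00388). Anxa1 and S100a11 gave r = 0.83 and rho = 0.78 (permutation p = 2e-04 and 0.00014, adjusted 2e-04 and 0.00025), and r = 0.73 without the 2 livers farthest from the median of Anxa1 (permutation p = 0.00774).

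The binding pairs did not stand alone in this. Over all 45 pairs of members the within-group r ran from 0.15 to 0.95 with a median of 0.64, and the highest was that of S100a11 with Anxa2. Among 9251 genes with a mean of at least 5 CPM, 25 genes (0.27%) followed Anxa2 more closely than S100a10 did, and 35 genes (0.378%) followed Anxa1 more closely than S100a11 did. The points share their libraries and scaling factors.

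**Figure D3:**
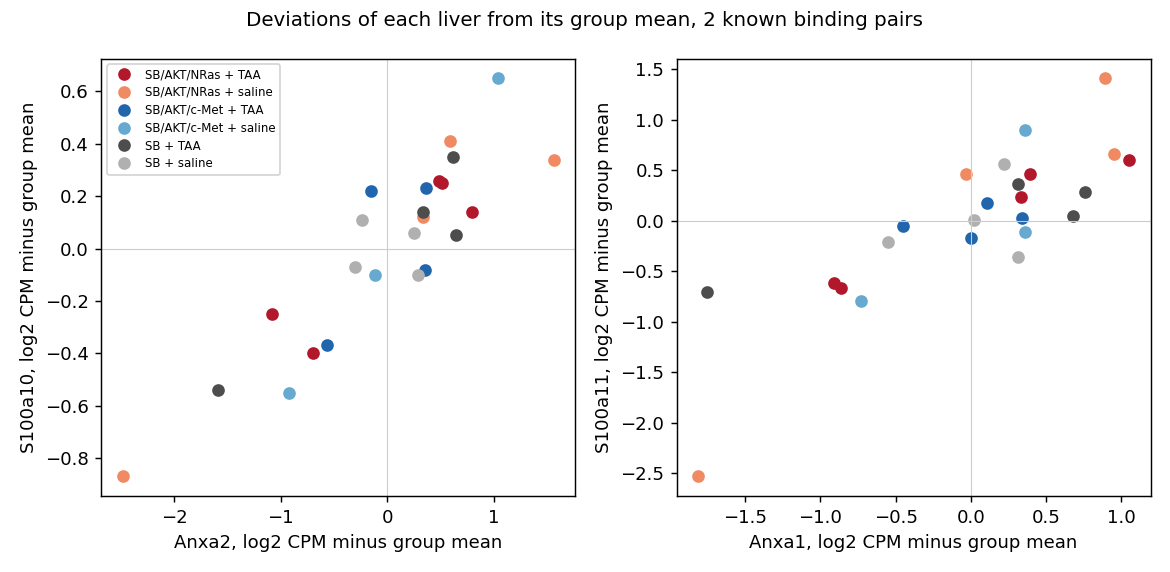
Each point is 1 of 24 livers, coloured by group; the axes give log2 CPM minus the group mean for Anxa2 against S100a10 (left) and Anxa1 against S100a11 (right). The points rise together (r = 0.90 and r = 0.83), with SB/AKT/NRas + saline replicate 1 at the lower left of both panels.

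Across the 24 livers, with differences between groups included, the closest gene was another member for S100a10, S100a11, Anxa2 and Anxa3. For the rest it was a gene outside the members. The members were chosen on these group levels, so nothing is read from their likeness to each other. By Pearson's r of log2 CPM, S100a11 was closest to Anxa2 (0.97) and Ly6d (0.97), and Anxa2 to S100a11 (0.97) and Chmp2b (0.95). Anxa5 was closest to Myl12b (0.97) and Tceal8 (0.96), and S100a10 to Anxa5 (0.95) and Apoa4 (0.95). S100a6 was closest to Birc5 (0.90), the cell division gene survivin, and Anxa3 (0.89), and Anxa3 to S100a6 (0.89) and Calm2 (0.89). Anxa1 was closest to Fstl1 (0.90) and Tpm4 (0.86), and Anxa4 to Fbxo6 (0.90) and Trf (0.89). Trf, the transferrin gene, was not part of the hepatocyte sum. The best matches of S100a4 (Fubp1, 0.73) and Anxa6 (Abcc3, 0.71) were weaker.

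Markers of several cell types moved with the members. The hepatocyte markers summed to 49400 to 80800 CPM in SB/AKT/NRas + saline livers, 61100 to 72300 CPM in SB/AKT/c-Met + saline livers and 75300 to 105000 CPM in SB + TAA livers, against 90300 to 108000 CPM in SB + saline livers. After TMM scaling both plasmid groups on saline thus lay below the controls without overlap. The TMM factors were lowest in SB + saline, and these sums were not compared under library size alone. Singly, 1 of the 6 markers lay below SB + saline in every SB/AKT/NRas + saline liver (4.27% of all genes did). In SB/AKT/c-Met + saline 4 of them did (4.85% of all genes). Within groups the r of the hepatocyte sum was -0.70 with S100a10, -0.61 with Anxa2 and -0.47 with Anxa5. It was negative for all 10 members, but only -0.04 with Anxa4, -0.20 with S100a6 and -0.21 with Anxa3. The listed marker Tf, counted here under the symbol Trf, was left out of the sum. The within-group r of Trf with Anxa4 was 0.89. The 6 bile duct markers summed to 150 to 8800 CPM in SB/AKT/NRas + saline, 45.4 to 380 in SB/AKT/c-Met + saline and 131 to 240 in SB + TAA, against 56.1 to 96.2 CPM in SB + saline, where Cftr was at 0. Spp1, which injured hepatocytes and macrophages can also make, gave most of that sum, with a median of 1680 CPM in SB/AKT/NRas + saline livers and 44.6 CPM in SB + saline; Krt19, a defining duct keratin, had medians of 6.61 and 2.07 CPM in these groups. In SB/AKT/c-Met + saline livers Krt19, near the floor, had 0 to 0.75 CPM, and the median of Spp1 was 171 CPM.

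The 7 markers of monocyte-derived macrophages summed to 151 to 362 CPM in SB/AKT/NRas + saline, 82.9 to 228 in SB/AKT/c-Met + saline and 190 to 261 in SB + TAA, against 66.8 to 129 CPM in SB + saline, where Itgax was at 0. The 8 stellate cell and myofibroblast markers summed to 236 to 833 CPM in SB/AKT/NRas + saline livers, 252 to 440 CPM in SB/AKT/c-Met + saline livers and 365 to 783 CPM in SB + TAA livers, against 193 to 321 CPM in SB + saline, with none at 0. The sums of the 6 T and NK cell markers were low, at 1.28 to 3.21 CPM in SB + saline livers. SB/AKT/NRas + saline livers had 0.696 to 5.4 CPM and overlapped with these controls. The other single treatments lay above the controls without overlap. SB + TAA livers had 3.55 to 6.12 CPM, and SB/AKT/c-Met + saline livers had 4.78 to 12 CPM. Ncr1 was at 0 in every SB + saline liver and every SB/AKT/c-Met + saline liver. Within groups the r of Anxa2 was 0.85 with the bile duct sum, 0.77 with the stellate cell sum, 0.63 with the macrophage sum, 0.62 with the neutrophil sum and -0.03 with the T and NK cell sum; for Anxa6 these were 0.55, 0.40, 0.26, 0.45 and -0.46. The part of these cell types in the differences of the members was not tested.

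**Figure D4:**
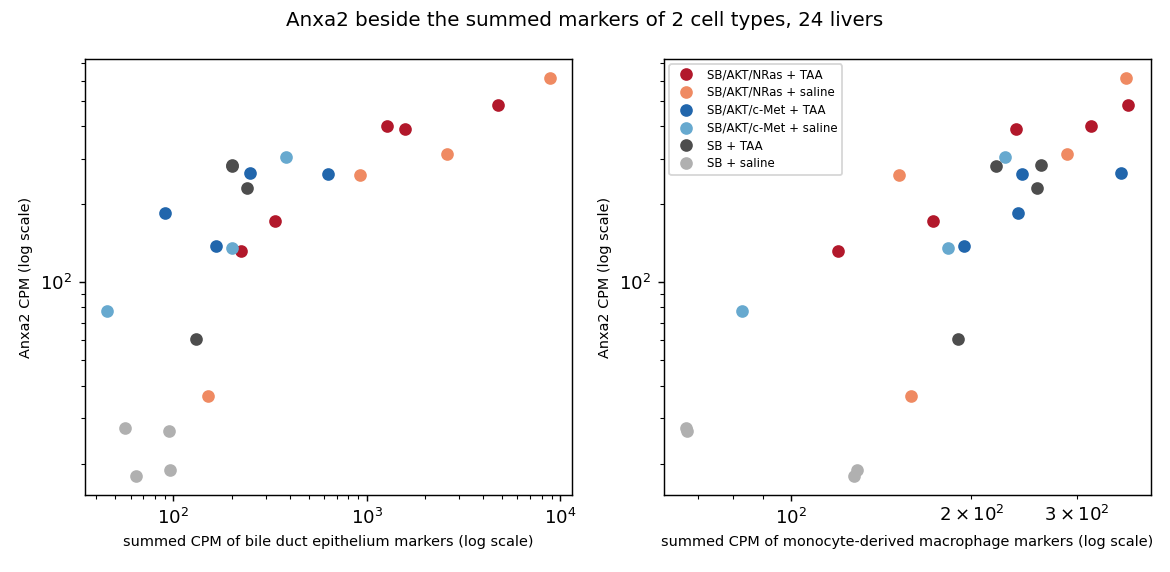
Anxa2 in CPM (vertical axis, log scale) against the summed CPM of the bile duct markers (left) and the monocyte-derived macrophage markers (right, log scales) in 24 livers coloured by group. The 4 SB + saline livers have the lowest Anxa2, at 17.98 to 27.4 CPM. The lowest bile duct sum (45.38 CPM) is that of SB/AKT/c-Met + saline replicate 1, with Anxa2 at 77.8 CPM.

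Another 18 genes of these families were counted, and 14 of them could be tested. S100a5, S100a7a, Anxa10 and Anxa11 had too few counts (1 to 4 in all). This list was also made with earlier results of these data known, so its calls and p-values are descriptions. In SB/AKT/NRas + saline livers against SB + saline 4 of the 14 were called higher (4.71% of all genes were) and 2 passed on the adjusted p alone as lower (2.84% of all genes). S100a8 and S100a9, which pair as calprotectin in neutrophils and monocytes, rose there. S100a8 had 6.60, 8.00, 31.8 and 33.9 CPM in SB/AKT/NRas + saline livers, against 0.856, 1.14, 4.81 and 5.57 CPM in SB + saline livers, with no overlap (log2 fold change 2.65 ± 0.56, edgeR adjusted p = 0.00364). S100a9 had 7.04, 5.92, 15.3 and 45.6 CPM in SB/AKT/NRas + saline livers, against 1.28, 2.84, 2.41 and 5.14 CPM in SB + saline livers, again without overlap (2.66 ± 0.62, edgeR adjusted p = 0.00808). Such a separation upwards was seen for 5.07% of all genes. Neutrophil markers, leaving both genes out, summed to 1.76 to 17.9 CPM in SB/AKT/NRas + saline and to 1.14 to 2.57 CPM in SB + saline, with Ngp at 0 in both; their part in the rise was not tested.

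The remaining 2 called genes were near the limit of detection in controls. Anxa13, an annexin of epithelial membranes, had 89 counts over the SB/AKT/NRas + saline livers and 3 over the SB + saline livers, a ratio of 22.6 (95% counting interval 7.47 to 111; edgeR adjusted p = 0.0103). S100b, best known from glia, had 47 counts and 1 count, a ratio of 35.7 (counting interval 6.11 to 1440; edgeR adjusted p = 0.0366), with 33 of the 47 in replicate 3. Without SB/AKT/NRas + saline replicate 4 only 2 genes of the list were called. S100a1, the S100 gene with the most counts of the list and one known from cardiac muscle, was lower: it had 318, 194, 106.5 and 153 CPM in SB/AKT/NRas + saline livers, against 328, 332, 334 and 344 CPM in SB + saline livers, with no overlap (4.27% of all genes were separate downwards; -0.80 ± 0.22, edgeR adjusted p = 0.0234). S100a13 had a log2 fold change of -0.57 ± 0.17 (edgeR adjusted p = 0.0387) with overlapping groups. Scaled by library size alone, neither passed: the log2 fold change was -0.43 for S100a1 (edgeR adjusted p = 0.0731), with overlap, and -0.15 for S100a13 (edgeR adjusted p = 0.539).

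S100g, a vitamin D-responsive calcium buffer of gut and kidney, was high in the combined treatments. It had 16.9, 27.8, 28.5 and 20.01 CPM in SB/AKT/c-Met + TAA livers, against 0.336, 0.789, 0 and 2.43 CPM in SB + TAA livers (log2 fold change 4.56 ± 0.56, edgeR adjusted p = 7.69e-05). SB/AKT/c-Met + saline livers had 0.463, 2.39 and 0.75 CPM, also below every SB/AKT/c-Met + TAA liver (4.15 ± 0.62, edgeR adjusted p = 0.000661). Such a separation upwards was seen for 2.53% of all genes against SB + TAA and for 5.07% against SB/AKT/c-Met + saline. S100g was the only gene of the list called in either comparison (called higher, 0.268% and 0.108% of all genes). In SB/AKT/NRas + TAA livers against SB + TAA, S100g was called with overlap (2.35 ± 0.60, edgeR adjusted p = 0.0404, and 0.0578 with library size alone), and so was S100b (edgeR adjusted p = 0.0136), which had 82 counts over the SB/AKT/NRas + TAA livers, 54 of them in replicate 5, and 0 over the SB + TAA livers, at least 21-fold higher when 3 counts over the group are taken as the floor. One call or both were lost when any of 6 livers was left out (SB + TAA replicates 1, 2 and 3 and SB/AKT/NRas + TAA replicates 2, 3 and 5; the count was 0 without the last of these and 1 without each of the others), where 0.826% of all genes were called higher.

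**Figure D5:**
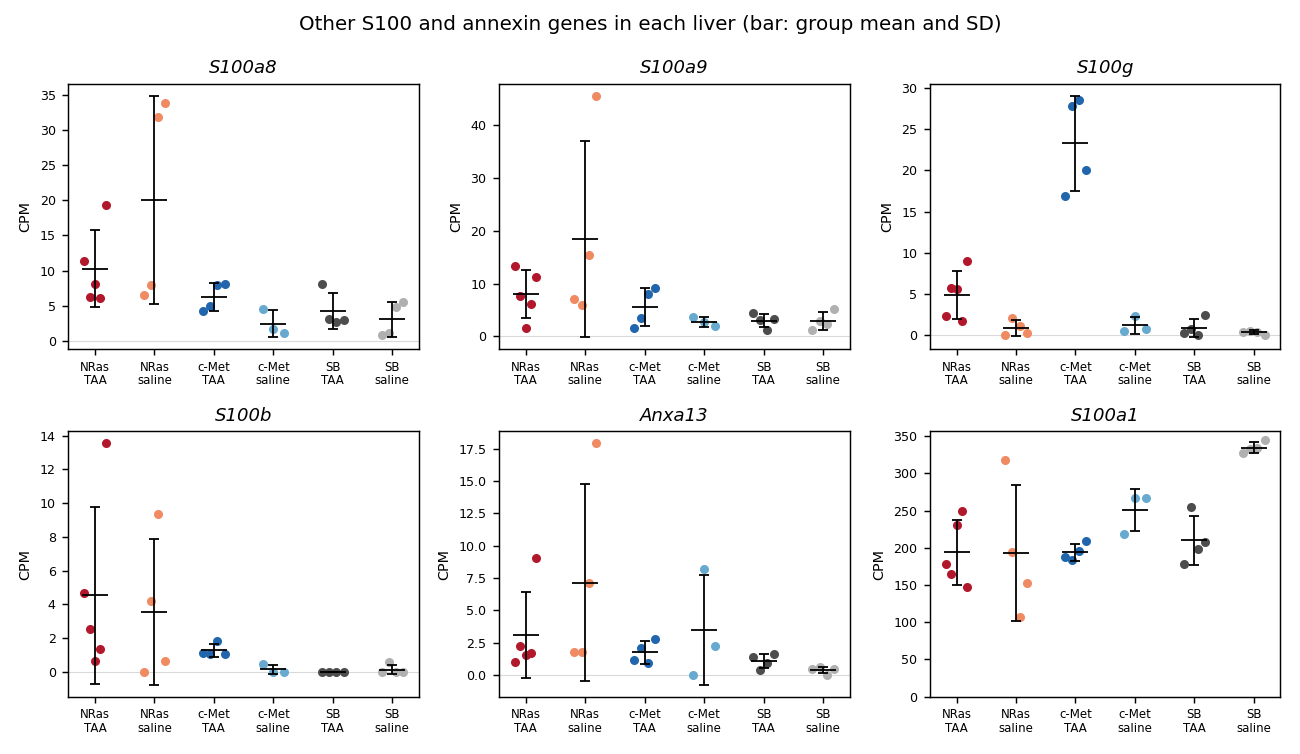
Level in CPM (vertical axis, from 0, a separate scale for each gene) of 6 other S100 and annexin genes in each liver, with group mean and SD. S100g reaches 16.9 to 28.5 CPM in SB/AKT/c-Met + TAA, S100a8 and S100a9 are higher in SB/AKT/NRas + saline than in SB + saline, and S100a1 is highest in the 4 SB + saline livers, which SB/AKT/NRas + saline replicate 1 overlaps when scaled by library size alone.

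In SB + TAA livers against SB + saline and in SB/AKT/c-Met + saline livers against SB + saline none of the 14 genes was called by edgeR, where 2.73% and 0.578% of all genes were called higher. Of these 14 genes, 3 had an unadjusted p under 0.05 in each comparison, and DESeq2 and limma-voom called 0 in both. S100a1 lay below SB + saline in every liver there as well (5.2% and 4.85% of all genes did), at 178, 255, 198.5 and 207 CPM in SB + TAA and at 218, 267 and 267 CPM in SB/AKT/c-Met + saline.

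Of 12 genes whose products bind or act with the members or other S100 proteins, or receive their signals, 11 could be tested. They too were chosen with earlier results of these data known, so their calls and p-values are descriptions. Ager, the receptor for several S100 proteins, had 6 counts in all. In SB/AKT/NRas + saline livers against SB + saline 3 were called higher, where 4.71% of all genes were: Plat, Myh9 and Tlr4. Plat, the tissue plasminogen activator whose product cleaves the plasminogen held by the Anxa2 and S100a10 complex, had 0.44, 8.70, 19.3 and 6.83 CPM in SB/AKT/NRas + saline livers, against 1.28, 0, 0 and 0 CPM in SB + saline livers; the ratio of summed counts was 29.1 (counting interval 9.72 to 143; edgeR adjusted p = 0.00704). Myh9, the non-muscle myosin that S100a4 binds, had 219, 262, 648 and 253.5 CPM in SB/AKT/NRas + saline livers, against 119, 194, 190.1 and 90.8 CPM in SB + saline livers (1.22 ± 0.38, edgeR adjusted p = 0.0425). Tlr4, a receptor for calprotectin, had 0.44, 2.78, 3.12 and 1.95 CPM, against 0.428, 0.568, 0 and 0.856 CPM in SB + saline livers (2.14 ± 0.68, edgeR adjusted p = 0.0472). These groups overlapped, and the counts were low, at 1 to 11 per liver against 0 to 2 in SB + saline. Plg, plasminogen itself, a hepatocyte product, was lower on the adjusted p alone (-0.73 ± 0.21, edgeR adjusted p = 0.0260; -0.34 and adjusted p = 0.132 with library size alone), with 681, 403, 389.5 and 419 CPM in SB/AKT/NRas + saline livers, against 848, 768, 745 and 775 CPM in SB + saline livers.

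In SB + TAA livers against SB + saline only Plat was called among these 11 genes (2.73% of all genes were called higher), with 8.40, 2.76, 4.28 and 7.30 CPM in SB + TAA livers (ratio of summed counts 17.4, counting interval 5.73 to 86.4; edgeR adjusted p = 0.0332), and the call was lost without any of SB + saline replicates 2, 3 and 4 or SB + TAA replicates 1 and 4; 2 genes were called without SB + TAA replicate 2. The count of 3 with SB/AKT/NRas + saline was 1 without any single SB + saline liver or SB/AKT/NRas + saline replicate 2, 0 without its replicate 3 and 5 without its replicate 1. Ahnak, a scaffold bound by the Anxa2 and S100a10 complex, Cacybp, which S100a6 binds, and Fpr1 and Fpr2, receptors for Anxa1, were called in none of the 9 comparisons. In the 7 comparisons other than these 2, edgeR called 0 of the 11 genes and limma-voom 0, DESeq2 called 1 in SB/AKT/c-Met + TAA livers against SB/AKT/c-Met + saline, and 0 to 5 had an unadjusted p under 0.05. Counting intervals cover counting error only.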

How the data were processed

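Libraries were prepared from snap-frozen bulk liver by poly(A) priming with a molecular tag, 1 library per mouse, so values of one gene are compared between livers and not with those of another gene. According to the submitters' processing notes and the study's methods, reads were aligned with STAR to GRCm38 with human NRAS and MET added and counted with featureCounts. The authors deposited raw gene counts that had not been normalized. Per the file headers, featureCounts read the forward strand at a mapping quality of at least 10 and was given no option to skip marked duplicates, so that whether the counts are molecules is not shown there. Both deposited count tables were identical in all 1283208 cells. Of the records, 20.68% to 23.13% were assigned in SB + TAA livers and 15.6% to 16.69% in SB + saline livers.

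Tests were run with edgeR 4.0.16 in R 4.3.3, with limma 3.58.1 and DESeq2 1.42.0 as alternatives. The filter kept every gene reaching 0.5 CPM in 2 or more libraries. After TMM scaling, all 24 libraries entered one quasi-likelihood fit with a mean for each of 6 groups, so that groups of 3 to 5 livers share 1 estimate of spread, and p-values were adjusted over all 19381 genes in each of 9 comparisons. CPM are scaled by TMM, and the SE is the log2 fold change divided by the root of F. Within-group correlations used log2 CPM (prior count 2) and 100000 permutations of livers within groups, two-sided. The model was tested on simulated data. No 2 libraries of a group were identical.

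The genes named are the 10 members, the other S100 and annexin genes, 12 partner and receptor genes, the cell type markers and, for each member, the genes of highest correlation among those with a mean of at least 5 CPM. Members and lists were chosen with earlier results of these data known. Alternatives were DESeq2, limma-voom (the method of the study), no filter, RLE size factors, scaling by library size only, filterByExpr, robust estimation, no fold threshold, only the groups compared, a replicate block and the omission of each liver; the joint omission of 2 livers was added after the data were seen.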

Additional observations from a re-analysis of the deposited data

Results flagged for a closer look

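Each member was examined in each group of 4 or 5 livers for a liver far from the others. Of these 50 sets, 2 were picked out, where chance picks about 5% of sets. The sets reuse the same livers and the members moved together, so they are not independent. Anxa4 stood at 107 CPM in SB/AKT/NRas + TAA replicate 5, and the next liver of the group at 69.1 CPM. Anxa6 stood at 50.9 CPM in SB + TAA replicate 2, and the next liver of the group at 38.3 CPM.

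For 2 members the effect of TAA differed between SB/AKT/NRas livers and SB livers by the contrast of the model: S100a11 by a log2 difference of -2.76 and Anxa2 by -3.20. Both members were chosen with the levels behind this contrast in view, so these are descriptions.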

How the results depend on the processing

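There were 278 counts of called genes and within-group correlations under alternatives that left out neither 1 liver nor the 2 livers named below. Of these, 35 moved, all of them counts that changed by over 1.5 times or from or to 0. The main count is in brackets below, where the joint omission of the 2 livers is listed as well. No log2 fold change of a called member changed sign under any alternative. For the members, SB/AKT/c-Met + saline livers against SB + saline gave 2 with limma-voom (4). SB/AKT/NRas + TAA livers against SB + TAA gave 1 with DESeq2, 2 without a filter, 1 with only the groups compared and 2 without replicate 4 of SB + TAA and replicate 1 of SB/AKT/NRas + saline (0). SB/AKT/c-Met + TAA livers against SB/AKT/c-Met + saline gave 2 without a filter and 1 with only the groups compared (0). The difference in the effect of TAA gave, for SB/AKT/NRas, 0 with limma-voom, robust estimation or only the groups compared and 6 without a filter (2), and for SB/AKT/c-Met 4 without a filter, 3 with only the groups compared and 1 without the 2 livers named (0). For the other S100 and annexin genes, SB/AKT/NRas + saline livers against SB + saline gave 2 with limma-voom (4), and SB/AKT/NRas + TAA livers against SB + TAA gave 1 with limma-voom or library size alone, 0 with robust estimation or only the groups compared and 4 without a filter (2). SB/AKT/NRas + TAA livers against SB/AKT/NRas + saline gave 1 with DESeq2 and 2 without a filter (0), SB/AKT/c-Met + saline livers against SB + saline gave 1 (0) and SB/AKT/c-Met + TAA livers against SB + TAA 2 (1) without a filter, and the difference in the effect of TAA for SB/AKT/NRas gave 2 (0) without the 2 livers named. For the partner and receptor genes, SB + TAA livers against SB + saline gave 0 with limma-voom or robust estimation and 2 with library size alone or no filter (1). SB/AKT/NRas + saline livers against SB + saline gave 1 with limma-voom, robust estimation or only the groups compared, 7 with library size alone and 5 without the 2 livers named (3). SB/AKT/c-Met + TAA livers against SB/AKT/c-Met + saline gave 1 with DESeq2, no filter, only the groups compared and without the 2 livers named (0), and the difference in the effect of TAA for SB/AKT/NRas gave 3 without a filter (0). The causes were not tested.

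Leaving out single livers, the members called ran from 3 to 7 in SB + TAA livers, 2 to 4 in SB/AKT/c-Met + saline livers and 4 to 7 in SB/AKT/NRas + saline, each against SB + saline, and from 0 to 4 for the difference in the effect of TAA with SB/AKT/NRas. The other S100 and annexin genes called ran from 2 to 5 in SB/AKT/NRas + saline livers against SB + saline, 0 to 2 in SB/AKT/NRas + TAA livers against SB + TAA and 0 to 2 for that difference. The partner and receptor genes ran from 0 to 2 in SB + TAA and 0 to 5 in SB/AKT/NRas + saline, each against SB + saline, and 0 to 2 for that difference. The within-group r ran from 0.83 to 0.91 for Anxa2 with S100a10 and from 0.76 to 0.86 for Anxa1 with S100a11.

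The replicate numbers do not pair the livers by any label: after subtraction of group means, the mean correlation over 55 pairs of livers from different groups was -0.00717 where the number matched (-0.294 to 0.144) and 0.00211 where it did not. With the replicate number as a block, the other S100 and annexin genes called in SB/AKT/NRas + TAA livers against SB + TAA were 0, and every other count of members or listed genes stayed within 1.5 times. Over all genes, library size alone called 1630 in SB + TAA livers (809), 214 in SB/AKT/c-Met + saline livers (120) and 2241 in SB/AKT/NRas + saline livers (1168), each against SB + saline, and 470 for the difference in the effect of TAA with SB/AKT/NRas (145); limma-voom called 64 in SB/AKT/c-Met + saline. With library size alone, the share of all called genes that were higher was 90.1% for SB + TAA livers and 95.2% for SB/AKT/NRas + saline livers, each against SB + saline, beside 65.4% and 78.2% with TMM (51.4% and 61% with limma-voom), and the log2 fold change of Anxa6 in SB/AKT/NRas + saline was 0.38, beside -0.09. Low counts limit S100a4, S100b, Anxa13, Plat and Tlr4.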
